A study of Homo sapiens with 16 samples.

Results

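Chromatin immunoprecipitation followed by sequencing (ChIP-seq) of HIF-1α and HIF-2α in PC3 prostate cancer cells gave 4 peak lists, 2 for each protein, and these are described here as HIF-1α-only, shared and HIF-2α-only sites. Peaks of the 2 replicates of a protein were merged where they overlapped by 1 bp or more, and a merged region was a site of that protein if both replicates contributed to it. Sites of the 2 proteins were then merged by the same rule. The 6495 PC3 peaks, of 23398 in the series, gave 1123 sites, of which 969 were HIF-1α-only, 94 were shared and 60 were HIF-2α-only.

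PC3 is an established line from a human prostate carcinoma. The cells were grown in F12K medium and held at 0.5% oxygen for 16 hours before immunoprecipitation with the rabbit polyclonal antibodies PM14 against HIF-1α or PM9 against HIF-2α. All 4 libraries came from hypoxic cells of this 1 line, and no normoxic, knockout or HIF-1β library was used here. Matching lists from A549 lung, HCT116 colorectal and T47D breast carcinoma cells, with the same 2 antibodies and the same hypoxia, served for comparison. Peak lists carry no expression values, so the label PC3 could not be checked against marker genes.

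Hypoxia-inducible factors are heterodimers of an oxygen-regulated α subunit with HIF-1β. Prolyl hydroxylation marks the α subunit for destruction by the von Hippel-Lindau ubiquitin ligase when oxygen is plentiful, and in hypoxia it accumulates, enters the nucleus and binds hypoxia response elements. HIF-1α and HIF-2α recognise the same core sequence, RCGTG, where R stands for A or G, yet they are known to occupy different sets of genomic sites.

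The sequences below are the central 200 bp of some of the best-scoring sites of each class, shown so that the base composition and the core elements of the classes can be read directly. They are the plus strand of GRCh37, with RCGTG on either strand in capitals. TGACTCA, the element of AP-1 (the FOS and JUN family), was searched as well, with TGAGTCA counted as its other strand, and occurred in none of the 7. The HIF-1α-only windows are at chr4:186317647-186317846 near ANKRD37 and chr10:99185189-99185388 near RRP12. The shared windows are at chr14:62218000-62218199 near SNAPC1, chr5:90576773-90576972 near ARRDC3 and chr5:172755605-172755804 near STC2. The HIF-2α-only windows are at chr1:94245279-94245478 near BCAR3 and chr2:208259693-208259892 near CREB1.
ANKRD37: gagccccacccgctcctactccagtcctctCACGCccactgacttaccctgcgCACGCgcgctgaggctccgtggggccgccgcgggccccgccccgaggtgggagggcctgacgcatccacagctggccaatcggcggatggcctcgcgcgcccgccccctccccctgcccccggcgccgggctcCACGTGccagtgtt
RRP12: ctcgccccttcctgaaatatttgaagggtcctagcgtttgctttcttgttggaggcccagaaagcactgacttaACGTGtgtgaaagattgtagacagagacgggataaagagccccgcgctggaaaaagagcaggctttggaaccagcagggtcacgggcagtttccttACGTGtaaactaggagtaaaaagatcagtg
SNAPC1: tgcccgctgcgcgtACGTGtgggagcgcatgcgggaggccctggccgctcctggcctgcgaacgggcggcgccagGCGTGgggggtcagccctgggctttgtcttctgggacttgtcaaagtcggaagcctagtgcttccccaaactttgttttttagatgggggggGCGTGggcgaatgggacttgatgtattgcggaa
ARRDC3: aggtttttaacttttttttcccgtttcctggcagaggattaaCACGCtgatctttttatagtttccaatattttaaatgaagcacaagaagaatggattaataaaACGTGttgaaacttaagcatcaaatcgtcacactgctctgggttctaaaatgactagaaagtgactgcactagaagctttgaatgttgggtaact
STC2: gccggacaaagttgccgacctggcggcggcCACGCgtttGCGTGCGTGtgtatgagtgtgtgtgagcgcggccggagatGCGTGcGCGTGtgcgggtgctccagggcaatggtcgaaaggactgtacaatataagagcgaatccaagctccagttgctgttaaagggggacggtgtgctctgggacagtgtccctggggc
BCAR3: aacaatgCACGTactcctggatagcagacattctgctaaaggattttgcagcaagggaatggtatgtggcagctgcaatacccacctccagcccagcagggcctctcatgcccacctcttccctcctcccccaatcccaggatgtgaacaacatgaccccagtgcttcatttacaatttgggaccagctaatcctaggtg
CREB1: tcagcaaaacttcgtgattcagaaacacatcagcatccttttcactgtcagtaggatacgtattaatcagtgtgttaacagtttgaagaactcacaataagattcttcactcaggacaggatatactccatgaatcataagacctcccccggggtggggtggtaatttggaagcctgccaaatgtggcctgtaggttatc

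The ANKRD37 window held 4 RCGTG elements and 23 CpG dinucleotides, and the STC2 window held 5 and 18. The window of the NARF site, which was second in rank among HIF-1α-only sites and is not printed because it runs into an untranslated exon, held 0 and 17. Of the HIF-2α-only windows shown, the one near BCAR3 held 1 RCGTG element and 1 CpG dinucleotide, and the one near CREB1 held 0 and 3.

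The lists differed in length within each protein as well as between them, and this bears on every count. HIF-1α replicates 1 and 2 held 1517 and 3413 peaks, and HIF-2α replicates 1 and 2 held 275 and 1290. The score that the authors' peak caller gave each peak began at 50.02 to 50.05 in each list. Scores are printed as deposited, and across lists they are compared only as percentile ranks within each list. Of the 25% of peaks with the highest scores in HIF-1α replicate 1, 98.7% were met in replicate 2, against 41.4% of the lowest 25%. For HIF-2α replicate 1, also the shorter list, the same shares in replicate 2 were 94.2% and 29.4%. In the other direction, from the longer list to the shorter, they were 75.1% and 9.03% for HIF-1α and 39.6% and 1.55% for HIF-2α. Read depth is not known from the lists, so where a list has no peak, binding below the threshold is possible. The replicates are separate libraries, but no label says that they are separate cultures, so p-values below measure the spread between lists, which may be technical.

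At the edge of the rule, the smallest overlap that joined replicate peaks was 2 bp for HIF-1α and 331 bp for HIF-2α, and the nearest peaks that did not meet were 20 and 670 bp apart. Requirement of both replicates retained 1063 of 3863 merged HIF-1α regions and 154 of 1410 HIF-2α regions. Of the HIF-2α sites, 61.0% (94 of 154, Wilson 95% interval 53.2 to 68.4%) were also HIF-1α sites, and of the HIF-1α sites 8.84% (94 of 1063, 7.28 to 10.7%) were also HIF-2α sites. Intervals of this kind cover counting error only. When each list was reduced to its 275 best peaks, so that list length no longer differed, there were 160 HIF-1α-only, 51 shared and 72 HIF-2α-only sites, and 41.5% of HIF-2α sites were shared. Without HIF-2α replicate 1, the shortest list, HIF-2α-only sites numbered 946 and 26.7% of HIF-2α sites were shared. Without HIF-1α replicate 1 the change was opposite, with 20 HIF-2α-only sites, 87.0% of HIF-2α sites shared and 3279 HIF-1α-only sites.

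Single-protein sites were graded in their exclusivity. Of the 969 HIF-1α-only sites, 713 had no HIF-2α peak in either list, 252 had one in HIF-2α replicate 2 and 4 had one in replicate 1. HIF-2α-only sites differed in this respect. Of the 59 on chromosomes 1 to 22, X or Y, 40 held a peak in HIF-1α replicate 2 and 19 had no HIF-1α peak at all. In replicate 1, 0 held one, which allows a share of up to 5.08% by a limit of 3 counts. This 0 is partly set by the rule. Of HIF-1α replicate 1 peaks 70.3% met one in replicate 2, and so could not lie at HIF-2α-only sites. The HIF-1α replicate 2 list was also longer than the HIF-2α replicate 2 list, at 3413 against 1290 peaks. The HIF-2α-only site beyond these 59 was on an unlocalised contig and was left out of all that follows.

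The best-scoring HIF-1α-only sites lay at promoters. All 10 were within 1 kb of a protein-coding start site, and all 10 had a peak in all 6 HIF-1α lists of the other lines. Only 3 of the 10 had no HIF-2α peak in any of those lines, and 1 had a peak in all 12 lists. They were, in order, the sites nearest to ANKRD37, NARF, RRP12, PNRC1, PPP1R3G, GAPDH, FAM174B, PFKFB4, BNIP3L and RLF. ANKRD37, an ankyrin-repeat gene long known as hypoxia-inducible, had scores of 1601 and 3100 in HIF-1α replicates 1 and 2, no peak in HIF-2α replicate 1 and 205 in HIF-2α replicate 2. NARF, which encodes a prelamin-binding nuclear protein, scored 1431 and 3100 with 68.0 in HIF-2α replicate 2. The site counted to RRP12, a ribosome biogenesis factor, scored 1307 and 2129 with 170 in HIF-2α replicate 2. These 3 sites thus had a HIF-2α peak in replicate 2 but not in replicate 1. By contrast PNRC1, a nuclear receptor coactivator, PPP1R3G, a glycogen-targeting subunit of protein phosphatase 1, FAM174B, the mitophagy receptor gene BNIP3L and the zinc finger gene RLF had no HIF-2α peak in either list. PNRC1 scored 1118 and 1936, and PPP1R3G scored 1375 and 1549.

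Shared sites led with a mixture of promoters and distant elements. The 10 highest were nearest to SNAPC1, ARRDC3, STC2, BHLHE40 with 2 sites, P4HA1, AK4, VOPP1, NDRG1 and ALDOA. The first, at chr14:62217337-62218864 and 11038 bp upstream of SNAPC1, a subunit gene of the small nuclear RNA-activating complex, scored 1690 and 3093 for HIF-1α and 402 and 878 for HIF-2α. The second lay 102261 bp downstream of the start site of ARRDC3, an arrestin-domain adaptor, with scores of 574 and 987 for HIF-1α and 352 and 788 for HIF-2α. At the promoter of BHLHE40, a basic helix-loop-helix repressor, scores were 375 and 1121 for HIF-1α and 431 and 1067 for HIF-2α. P4HA1, the catalytic subunit of collagen prolyl 4-hydroxylase, scored 1288 and 3137 for HIF-1α and 172 and 570 for HIF-2α. Among these 10 sites the BHLHE40 promoter had the highest HIF-2α scores in both lists and the lowest HIF-1α replicate 1 score. In the other 3 lines, 8 of the 10 had a peak in all 12 lists, NDRG1 in 11 and the VOPP1 site, 126710 bp upstream of its nearest gene, in 0.

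The leading HIF-2α-only sites lay away from promoters. None of the first 10 was within 1 kb of a start site, and they were nearest to SNAPC1, BCAR3, CREB1, APOBEC3H, ONECUT3, NCKAP5, TENM4, GADD45B, SLC45A1 and PPP2R2A. The SNAPC1 site scored 249 and 448 in HIF-2α replicates 1 and 2 and had no HIF-1α peak in either list. BCAR3, an adaptor in Cas signalling, had a site in an intron that scored 156 and 639 for HIF-2α with 212 in HIF-1α replicate 2. CREB1, the cAMP-responsive transcription factor gene, was 134668 bp from a site that scored 139 and 547 with 147 in HIF-1α replicate 2. The site near the cytidine deaminase gene APOBEC3H scored 146 and 334, and the intronic site counted to GADD45B, a stress-response gene, scored 112 and 230, both with no HIF-1α peak. Of these 10 sites 3 thus had no HIF-1α peak, and 2 were in no list of the other lines. Promoter sites were the exception in the class at 3 of 59. They belonged to PTPN14 and AMOTL2, which encode regulators of the YAP pathway, and TINAGL1, an extracellular matrix gene, with PTPN14 and TINAGL1 singled out after their values were seen.

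Shared sites ranked above single-protein sites in every list. The median percentile rank in HIF-1α replicates 1 and 2 was 60.6 and 79.9 for HIF-1α-only sites and 89.7 and 95.1 for shared sites. In HIF-2α replicates 1 and 2 it was 56.0 and 87.7 for HIF-2α-only sites and 75.5 and 95 for shared sites. Where single-protein sites held a peak of the other protein, that peak was of middle rank, with a median of 57.8 for the 252 HIF-1α-only sites in HIF-2α replicate 2 and 63.1 for the 40 HIF-2α-only sites in HIF-1α replicate 2. Class membership itself depends on the score threshold, so these ranks are a description and were not tested.

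**Figure D1:**
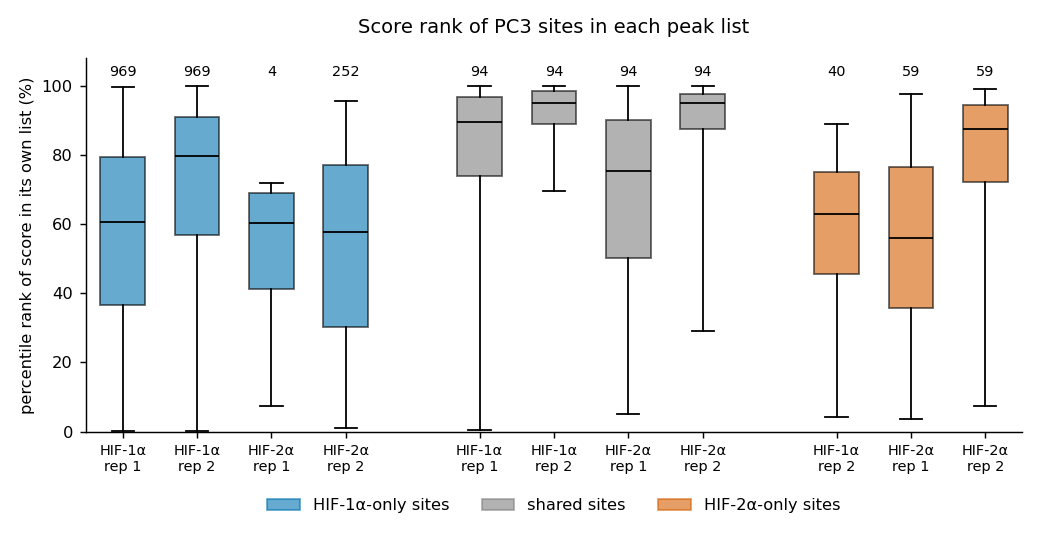
Percentile rank of score in its own PC3 peak list (vertical axis, %) for sites of each class, with 1 box per list in which the class had peaks. Boxes span the quartiles, lines are medians, whiskers reach the lowest and highest value, and the number over each box is that of sites with a peak. Shared sites have the highest medians, 75.5 to 95.1.

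Sharing rose with HIF-1α rank. When the HIF-1α sites were divided into 4 bins of nearly equal size by mean rank in the HIF-1α lists, shared sites made up 5 of 266 in the lowest bin, 12 of 266 and 16 of 265 in the middle bins, and 61 of 266 (22.9%, 18.3 to 28.3%) in the highest. Within each of these bins, a HIF-2α replicate 2 peak was more frequent away from start sites, with rank not matched further inside a bin. In the lowest bin it was present at 10.6% (19 of 180) of sites within 1 kb of a start site and 32.6% (28 of 86) of those farther away. In the highest bin the shares were 48.1% (77 of 160) and 67.0% (71 of 106). Over the 94 shared sites, Spearman's rho of the ranks was 0.895 between the HIF-1α lists, 0.728 between the HIF-2α lists and 0.425 to 0.532 for pairs across proteins. These correlations describe sites that share libraries and carry no test.

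The classes occupied different parts of the genome. HIF-1α-only sites were within 1 kb of a start site in 67.3% (652 of 969, 64.3 to 70.2%), in exons in 2.17%, in introns in 11.8% and between genes in 18.8%. For shared sites these shares were 29.8% (28 of 94, 21.5 to 39.7%), 3.19%, 34.0% and 33.0%. For HIF-2α-only sites they were 5.08% (3 of 59, 1.74 to 13.9%), 3.39%, 32.2% and 59.3%. The promoter share thus fell from HIF-1α-only through shared to HIF-2α-only sites, with no overlap between the 3 intervals. The quartiles of distance to a start site were 83 and 5685 bp for HIF-1α-only, 578 and 30735 bp for shared and 6914 and 92437 bp for HIF-2α-only sites. Sites over 100 kb from a start site made up 4.33%, 10.6% and 23.7% of the 3 classes. Beyond 1 kb, sites were about as often upstream as downstream of the start site, at 45.4%, 51.5% and 46.4% upstream. When start sites of all annotated transcripts, non-coding ones included, were used, the median distance of HIF-2α-only sites was 4990 bp in place of 26045 bp and that of shared sites 2170 bp in place of 9066 bp, with HIF-1α-only sites at 182 bp.

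**Figure D2:**
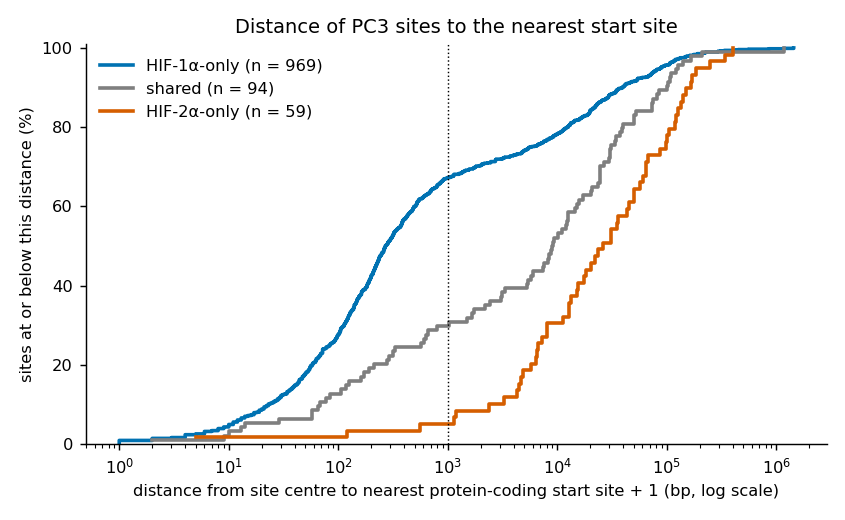
Cumulative share of PC3 sites (vertical axis, %) by distance in bp from the site centre to the closest protein-coding start site, plus 1 (horizontal axis, log scale), 1 line per class, with a dotted line at 1 kb. At 1 kb the lines stand at 67.3% for HIF-1α-only, 29.8% for shared and 5.08% for HIF-2α-only sites.

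Sites were spread over many chromosomes. Of HIF-2α-only sites 12 of 59 (20.3%) lay on chromosome 1, which holds 10.4% of protein-coding genes, and of shared sites 9 of 94 (9.57%) lay on chromosome 8, which holds 3.52%. These were the largest excesses in percentage points in those classes. Relative to the share of genes, the largest were for HIF-2α-only sites on chromosome 22 (4 of 59, 6.78% against 2.23%) and for shared sites on chromosome 21 (5 of 94, 5.32% against 1.14%). These chromosomes were picked out after their values were seen. Another site within 20 kb was present for 8.46% of HIF-1α-only, 17.0% of shared and 13.6% of HIF-2α-only sites.

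Site width separated the proteins less than position did. Median width was 1423 bp (1390 to 1463 bp) for HIF-1α-only, 1681 bp (1583 to 1782 bp) for shared and 1420 bp (1273 to 1494 bp) for HIF-2α-only sites. The median width of single peaks was 963 and 1290 bp in HIF-1α replicates 1 and 2 and 690 and 1316 bp in HIF-2α replicates 1 and 2. In PC3, width therefore varied more with the replicate than with the protein, and both replicates numbered 2 had the longer list and the wider peaks.

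Base composition differed in the same order as position. In the central 200 bp, HIF-1α-only sites held 16.8 ± 9.18 CpG dinucleotides (mean ± SD over sites, n = 969), shared sites 10.1 ± 8.43 (n = 94) and HIF-2α-only sites 5.44 ± 5.36 (n = 59). The mean GC content was 65.7%, 59.4% and 54.3%. Windows 5 kb to each side held 2.84 to 2.97 CpG dinucleotides on average in all 3 classes, and windows centred on start sites of protein-coding transcripts held 14.1.

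The core element RCGTG was present in the central 200 bp of 70.9% of HIF-1α-only sites, 64.9% of shared sites and 52.5% of HIF-2α-only sites. The HIF-2α-only share was the lowest whichever 1 list was left out, but its size rested on single lists, at 15.8% without HIF-1α replicate 1 and 32.4% without HIF-2α replicate 2. Without HIF-1α replicate 1 the other classes changed order, at 67.2% for shared and 63.6% for HIF-1α-only sites. RCGTG was in 24.9%, 23.5% and 31.4% of windows 5 kb away and in 40.9% of windows on 78701 start sites. Its forms ran in different directions. ACGTG was in 42.9%, 51.1% and 39.0% of the classes, and GCGTG in 47.3%, 27.7% and 22.03%. In HIF-1α-only sites GCGTG was in 51.7% of those within 1 kb of a start site and 38.2% of those farther away, and ACGTG in 39.9% and 49.2%. A match is a description of the sequence and not of binding to it.

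The AP-1 element TGACTCA was in 6.40% (62 of 969, 5.02 to 8.12%) of HIF-1α-only, 14.9% (14 of 94, 9.08 to 23.5%) of shared and 18.6% (11 of 59, 10.7 to 30.4%) of HIF-2α-only sites. It was in 2.67 to 4.24% of windows 5 kb away. Away from promoters the intervals of the classes overlapped. Beyond 1 kb from a start site it was in 16.7% (53 of 317, 13.02 to 21.2%) of HIF-1α-only, 18.2% (12 of 66, 10.7 to 29.1%) of shared and 19.6% (11 of 56, 11.3 to 31.8%) of HIF-2α-only sites. Within 1 kb it was in 1.38% (9 of 652) of HIF-1α-only sites and in 2 of 28 shared sites. In HIF-1α-only sites the element was thus rarer at promoters than beyond them.

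**Figure D3:**
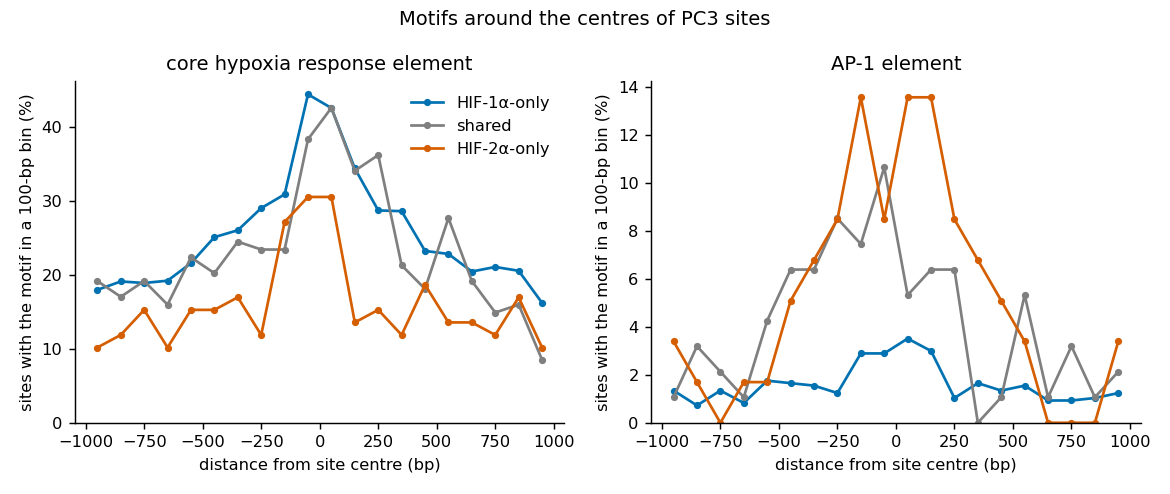
Share of PC3 sites of each class (vertical axes, %) with RCGTG, left, or TGACTCA, right, in 100-bp bins by distance from the site centre (horizontal axes, bp), on either strand. RCGTG peaks at the centre in each class, from 44.4% in HIF-1α-only sites to 30.5% in HIF-2α-only sites, and TGACTCA reaches 13.6% in HIF-2α-only against 3.51% in HIF-1α-only sites. With 59 HIF-2α-only sites, 1 site moves a bin by 1.69 points.

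HIF-2α-only sites differed among themselves in the core element. Among the 40 with a HIF-1α peak in replicate 2, RCGTG was in the central 200 bp of 70.0% (28 of 40, 54.6 to 81.9%), and among the 19 with no HIF-1α peak it was in 15.8% (3 of 19, 5.52 to 37.6%). ACGTG was in 22 of 40 and 1 of 19. TGACTCA, by contrast, was in 7 of 40 and 4 of 19, and the median distance to a start site was 26530 and 26045 bp. Over the whole site RCGTG was in 40 of 40 and 14 of 19, at median widths of 1422 and 1353 bp. The groups were not matched for score. By mean rank in the HIF-2α lists the 19 had a lower median than the 40, although the best-ranked site was among the 19. RCGTG was in 61.0% of HIF-2α-only sites when only the better-scoring peaks of each list were kept. With peaks of either replicate it was in 34.3%. Whether rank accounts for the gap between the 40 and the 19 was not tested. The interval of the 19 includes the 31.4% of windows 5 kb from HIF-2α-only sites, and that of the 40 lies above it. Among HIF-1α-only sites RCGTG was in 68.0% (62.0 to 73.4%) of the 256 with a HIF-2α peak and 71.9% (68.5 to 75.1%) of the 713 without. The same division in the other lines gave RCGTG in 73.5% of HIF-2α-only sites with a HIF-1α peak and 60.9% without in A549, 61.0% and 33.3% in HCT116, and 83.3% and 64.9% in T47D. The share was lower without a HIF-1α peak in 4 of 4 lines, and the gap was widest in PC3. This division was chosen after the values were seen and has no test.

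Position and composition were compared between proteins over whole lists, so that neither the overlap of the proteins nor that of replicates entered. The median log10 of distance plus 1 bp was 2.62 and 2.48 in the HIF-1α lists and 4.41 and 4.13 in the HIF-2α lists. Peaks outside every protein-coding gene made up 34.0% and 34.0% of the HIF-1α lists and 52.9% and 47.5% of the HIF-2α lists. The mean CpG count was 15.7 and 15.3 against 6.44 and 8.32, and TGACTCA was in 6.13% and 8.47% against 15.8% and 18.9% of peaks. In each of these 4 measures the HIF-1α lists did not overlap the HIF-2α lists. The exact permutation test over 2 against 2 lists gave p = 0.333 for each, the smallest value it can give, so PC3 alone cannot pass a threshold of 0.05. For peak width it gave an exact p of 1.

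With the proteins' labels exchanged within each of the 4 lines in all 1296 ways, the difference between HIF-1α and HIF-2α lists was -1.65 for log10 distance, -12.2 points for the intergenic share, 7.88 for CpG count and -8.03 points for TGACTCA. Each had an exact two-sided p of 0.00154, the smallest possible, and 0.00231 after Benjamini-Hochberg adjustment over 6 tests, with the same sign in 4 of 4 lines. The 4 measures were taken over the same peaks, promoter and distant together, so they are not independent. CpG count and TGACTCA share were not tested at equal distance from start sites. The PC3 differences alone were -1.72, -16.2 points, 8.11 and -10.1 points. For log10 peak width the difference over all lines was 0.162 (exact p = 0.0201, adjusted 0.0201), and in PC3 it was 0.0683. The width result rested on single PC3 lists, since p was 0.0633 without HIF-1α replicate 2 and 0.0617 without HIF-2α replicate 1, and without the latter the PC3 difference was -0.0720.

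**Figure D4:**
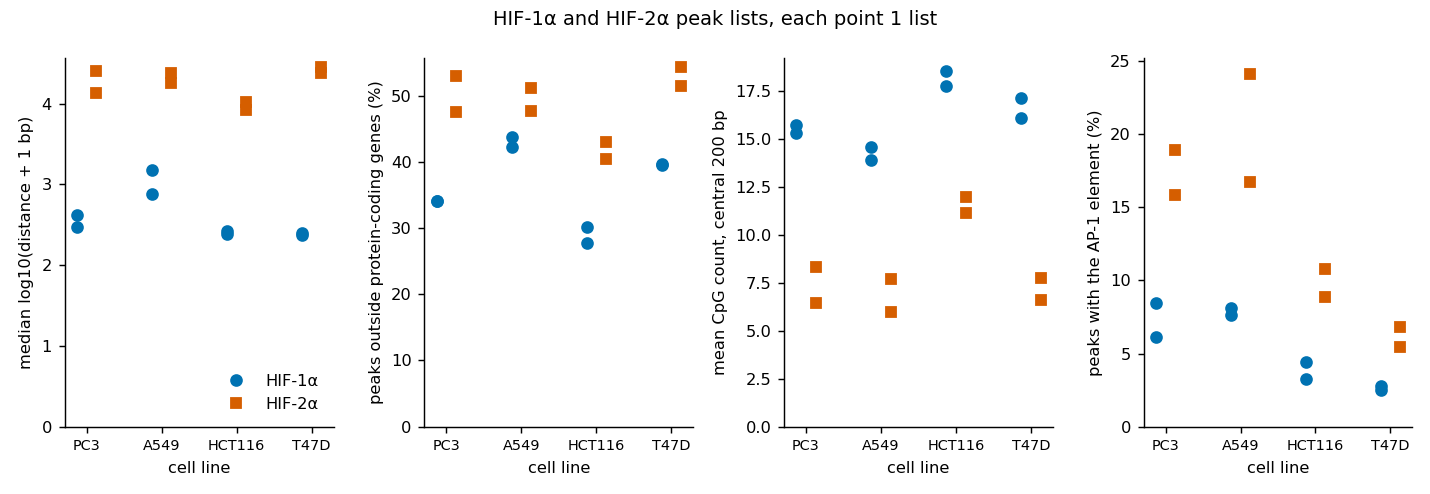
Values of each peak list, 1 point per list, for HIF-1α (circles) and HIF-2α (squares) in the 4 cell lines (horizontal axes). The panels show the median log10 of distance to a start site plus 1 bp, the share of peaks outside protein-coding genes (%), the mean CpG count in the central 200 bp, and the share of peaks with TGACTCA (%). In PC3 the HIF-1α lists do not overlap the HIF-2α lists in any panel.

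Genes were assigned to a site by the closest protein-coding start site, which names a neighbour and not a target. The start of any annotated protein-coding transcript counted, so an alternative transcript can decide which gene is named. Names such as RRP12, and the list counts below, carry this limit. Of 19794 protein-coding genes, 4.7% were nearest to a HIF-1α-only site, 0.47% to a shared site and 0.288% to a HIF-2α-only site. Gene lists are read against these shares. The list of genes that the study found bound and induced in all its cell lines, PC3 among them, was chosen partly on these libraries and is no independent evidence. Of its 47 members with an annotated start site, 26 were nearest to a HIF-1α-only site, 22 to a shared site and 0 to a HIF-2α-only site, and 44 were nearest to a site of any class.

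Glycolysis and glucose uptake genes were above these shares for HIF-1α-only and shared sites. Of 23 genes, 14 were nearest to a HIF-1α-only site, 8 to a shared site and 0 to a HIF-2α-only site. The GAPDH promoter scored 1042 and 2151 for HIF-1α with 220 in HIF-2α replicate 2. PFKFB4 and PFKFB3, whose products set the level of fructose 2,6-bisphosphate, had HIF-1α-only sites that scored 811 and 1718, and 628 and 1087. The PFKFB4 site had 71.9 in HIF-2α replicate 2. PFKFB3 was also nearest to a shared site 75280 bp away, at 144 and 298 for HIF-1α and 70.4 and 159 for HIF-2α. Of the shared promoters, that of the isomerase gene GPI scored 1505 and 3100 for HIF-1α and 142 and 382 for HIF-2α. The lactate dehydrogenase gene LDHA scored 712 and 1568 for HIF-1α and 106 and 370 for HIF-2α. PDK1, whose product inhibits pyruvate dehydrogenase, scored 1098 and 2884 for HIF-1α and 69.3 and 341 for HIF-2α. Scores of different lists are not on one scale, so HIF-1α and HIF-2α scores at a site cannot be compared. The highest scores were 1830 and 3184 in the HIF-1α lists and 431 and 1232 in the HIF-2α lists. SLC16A3, the lactate exporter MCT4, was the 1 gene of 8 in lactate export and acid-base control with a shared site, at 1181 and 2015 for HIF-1α and 128 and 338 for HIF-2α.

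The oxygen-sensing machinery was itself represented. Of 15 genes of this list, 3 were nearest to HIF-1α-only sites and 1 to a shared site. The prolyl hydroxylase gene EGLN1 had a HIF-1α-only promoter site that scored 558 and 415 with 60.8 in HIF-2α replicate 2. EGLN3, another prolyl hydroxylase gene, had a shared intronic site that scored 382 and 921 for HIF-1α and 72.7 and 80.7 for HIF-2α. Of 17 JmjC histone demethylases, which are oxygen-dependent as the prolyl hydroxylases are, 5 were nearest to HIF-1α-only sites and 2 to shared sites. The shared promoter sites were those of KDM4B, at 573 and 1638 for HIF-1α and 107 and 200 for HIF-2α, and KDM3A, at 866 and 2483 for HIF-1α and 57.6 and 132 for HIF-2α.

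Collagen-modifying genes were placed at shared and HIF-1α-only sites. Of 12 genes for collagen hydroxylation and crosslinking, 3 (P4HA1, PLOD2 and LOXL2) were nearest to shared sites and 2 (P4HA2 and P4HB) to HIF-1α-only sites, and by the 3 nearest genes 3 were at shared and 6 at HIF-1α-only sites. The promoter of PLOD2, a lysyl hydroxylase, scored 644 and 1347 for HIF-1α and 63.6 and 316 for HIF-2α. Of 18 angiogenic and vasoactive genes, 3 were nearest to HIF-1α-only and 2 to shared sites. The vasodilator gene ADM had a shared site 2185 bp downstream of its start that scored 415 and 678 for HIF-1α and 162 and 357 for HIF-2α. Of 21 genes of growth control and stress response, 10 were nearest to HIF-1α-only sites, 2 to shared sites and 1 to a HIF-2α-only site. Lipid metabolism (6 of 18), glycogen metabolism (2 of 12) and mitophagy and autophagy (2 of 12) had members at HIF-1α-only sites and 0 members at the other classes. The glycogen branching enzyme gene GBE1 was among them, at 491 and 1226 for HIF-1α with 158 in HIF-2α replicate 2. With 0.47% of all genes nearest to a shared site, a count of 0 there says little in lists of this size.

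HIF-2α-only sites named 57 genes in all, 0.288% of protein-coding genes, so a count of 0 for this class in these lists says little. Of 21 hypoxia-linked transcription factors, 2 (9.52%) were nearest to HIF-2α-only sites, 3 (14.3%) to shared sites and 6 (28.6%) to HIF-1α-only sites. The shares of all genes were 0.288%, 0.47% and 4.7%. The site 22017 bp downstream of the start of KLF6, a zinc finger factor, scored 58.1 and 162 for HIF-2α with 111 in HIF-1α replicate 2. That of ETS1 was 170732 bp away and scored 54.5 and 142 with no HIF-1α peak. The cytokine gene LIF was nearest to 2 HIF-2α-only sites, which scored 63.4 and 159, and 51.4 and 197, with 51.3 and 74.95 in HIF-1α replicate 2. IGFBP3, an insulin-like growth factor binding protein gene, had a site 56584 bp upstream that scored 58.6 and 219 with 146 in HIF-1α replicate 2. AMOTL2 was the 1 of 14 TEAD and YAP genes (7.14%) at a HIF-2α-only site, scoring 71.6 and 141 with no HIF-1α peak. Of 18 genes of prostate lineage and androgen response, SLC45A3 alone was nearest to a site, a shared one that scored 56.4 and 195 for HIF-1α and 54.7 and 92.0 for HIF-2α.

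Gene families of 44 to 508 members had 2.27 to 6.49% at HIF-1α-only sites, against 4.7% of all genes. Of 86 cytosolic ribosomal protein genes, 2 were nearest to HIF-1α-only sites, 0 to shared and 1 to a HIF-2α-only site. Of 87 respiratory chain and ATP synthase genes the counts were 3, 0 and 0, of 77 mitochondrial ribosomal protein genes 5, 1 and 0, and of 88 histone genes 2, 0 and 0. Among 508 ZNF genes, 31 were nearest to HIF-1α-only sites, 1 to a shared and 1 to a HIF-2α-only site. Of 367 solute carrier genes the counts were 16, 5 and 2, and of 44 collagen genes 1, 0 and 0. The 5 solute carriers at shared sites were 1.36%, against 0.47% of all genes. The smaller lists that follow lay above the 4.7% of all genes at HIF-1α-only sites, on counts of 2 or 3 genes. AP-1 genes had 3, 0 and 0 of 14, with 21.4% at HIF-1α-only sites. Cytokines and NF-κB had 3, 1 and 1 of 22, or 13.6%, 4.55% and 4.55%. Adhesion and cytoskeleton had 2, 0 and 0 of 30, and growth factor signalling 2, 0 and 1 of 28. Subunits of the small nuclear RNA-activating and Mediator complexes had 3, 1 and 1 of 35.

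Several genes had sites of more than 1 class. The sites on chromosomes 1 to 22, X or Y named 1053 genes, of which 63 were nearest to 2 or more sites and 27 to sites of more than 1 class. Of these 27, 18 combined HIF-1α-only with shared, 6 HIF-1α-only with HIF-2α-only and 3 shared with HIF-2α-only sites. The glucose transporter gene SLC2A1 had a HIF-1α-only promoter site at 316 and 281, a second HIF-1α-only site 3926 bp upstream at 74.3 and 219, and a shared intronic site 1740 bp downstream of the nearest start at 52.7 and 152 for HIF-1α and 114 and 228 for HIF-2α. The intronic site was thus the lowest of these for HIF-1α in both lists and the highest for HIF-2α. SNAPC1, FPR1 and ELF3 each paired a shared site with a HIF-2α-only site, whose edges were 894 bp apart at FPR1 and 2882 bp apart at ELF3. FSCN1 and GADD45B, named after their values were seen as were FPR1 and ELF3, paired a HIF-1α-only site with a HIF-2α-only site 271 and 768 bp apart. Such neighbours count as different sites because their peaks did not meet.

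No list of the other lines entered the rule, so their peaks, from the same antibodies, could be counted over the classes. HIF-1α-only sites had a HIF-1α peak in at least 1 other line in 78.8% (764 of 969) and a HIF-2α peak in 31.7% (307 of 969). HIF-2α-only sites had the opposite order, with a HIF-1α peak elsewhere in 27.1% (16 of 59) and a HIF-2α peak in 64.4% (38 of 59). Shared sites had both, at 76.6% and 79.8% of 94. By list, HIF-2α-only sites were met in 47.5% and 42.4% of cases by the A549 HIF-2α lists, 32.2% and 33.9% by those of HCT116, and 3.39% and 5.08% by those of T47D. The HIF-1α lists met them in 5.08% and 8.47%, 18.6% and 11.9%, and 1.69% and 1.69%. HIF-1α-only sites were met most often by the HCT116 HIF-1α lists, the longest, at 71.5% and 68.2%. The T47D HIF-2α lists, with 423 and 424 peaks, were the shortest HIF-2α lists among these lines and met few sites of either single-protein class.

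The share of HIF-2α-only sites met, less the share of HIF-1α-only sites met, lay between -56.4 and -11.4 points in the 6 HIF-1α lists and between -1.05 and 33.8 points in the 6 HIF-2α lists, so the lists of the 2 proteins did not overlap. The difference between proteins was -48.4 points. Over the 216 exchanges of labels within lines the exact two-sided p was 0.00926, the smallest possible, and 0.0111 after adjustment over 6 tests. It was added after the data were seen. Sites with no peak in any of the 12 lists of other lines made up 20.0% (194 of 969) of HIF-1α-only, 17.0% (16 of 94) of shared and 33.9% (20 of 59, 23.1 to 46.6%) of HIF-2α-only sites. All 6 HIF-1α lists met 11.1% of HIF-1α-only and 37.2% of shared sites, and all 6 HIF-2α lists met 1.65% and 27.7%. No HIF-2α-only site was in all 6 lists of either protein, 0 of 59 allowing a share of up to 5.08% by the limit of 3 counts.

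**Figure D5:**
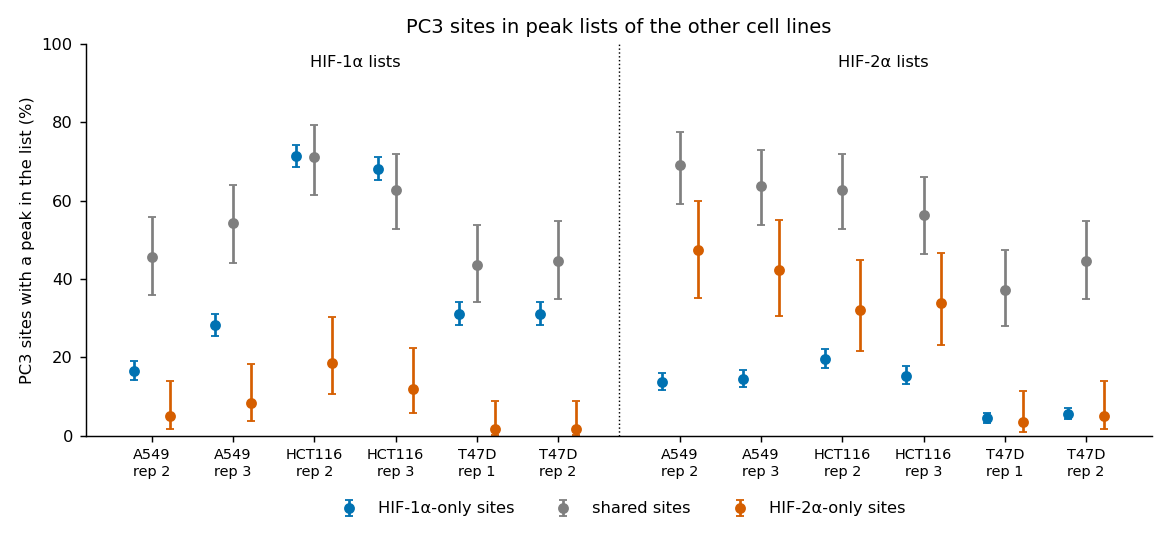
Share of PC3 sites of each class (vertical axis, %) with a peak in each HIF-1α list, left, and HIF-2α list, right, of A549, HCT116 and T47D, with Wilson 95% intervals as bars that cover counting error only. HIF-2α-only sites are below HIF-1α-only sites in all 6 HIF-1α lists and above them in the 4 HIF-2α lists of A549 and HCT116, and the T47D HIF-2α lists give 3.39% and 5.08% against 4.44% and 5.47%.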

How the data were processed

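Peak lists of 16 ChIP-seq libraries were used, of which 4 were from PC3. The authors trimmed reads, aligned them to GRCh37, filtered them by mapping quality, blacklist and duplication, and called peaks in each library. The study's methods name the callers T-PIC and MACS, with peaks found by both filtered on read count against random background regions, and the labels name MACS alone. Which of these steps the deposited lists had passed is not given in the sources used here. The submitters' processing notes name Trim Galore 0.3.3, BWA 0.7.5a-r405, SAMtools 0.1.19, Picard 2.0.1 and bedtools 2.17.0, and the version of MACS is not given in the sources used here. The score deposited with the peaks came from the peak caller, with no stated scale. It is printed as deposited, and across lists it was compared only as a percentile rank within its list. Read totals were not used here, so depth is unknown.

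Groups were taken from the sample labels. Overlap was 1 bp or more. Genes were those of GENCODE release 44 on GRCh37, distances ran from site centres, and promoter took precedence over exon, intron and intergenic. Both strands of the central 200 bp were searched for motifs. Shares carry Wilson 95% intervals and medians order-statistic intervals. The 2 proteins were compared over lists by exact permutation (two-sided), with Benjamini-Hochberg adjustment and a threshold of 0.05. The tests were tested on simulated data. Python 3.11.15, numpy 2.4.6, scipy 1.17.1, pandas 2.3.3, pysam 0.24.0 and matplotlib 3.10.9 were used.

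Sites and gene lists were chosen with earlier results of these data known. Named were the 10 sites of each class with the highest mean rank, members of 26 gene lists at shared or HIF-2α-only sites (up to 5 per list) or HIF-1α-only sites (up to 3), and, where stated, others chosen after their values were seen. Sequences were printed for the first 3 sites of each class outside chromosome 8, with NARF left out and 1 HIF-2α-only site not reported here. Alternatives were stricter or equal numbers of peaks, other overlap rules, other start sites and windows, the 3 nearest genes, pairing by replicate number and leaving out each list.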

Additional observations from a re-analysis of the deposited data

How the results depend on the processing

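The differences between proteins in distance, intergenic share, CpG count and TGACTCA share kept their direction under every alternative run, in PC3 and over all lines, and over all lines each remained past the threshold. Without PC3 their exact p was 0.00926 in each case. For peak width over all lines p was above 0.05 without HIF-1α replicate 2 (difference 0.146) and without HIF-2α replicate 1 (0.127), and leaving out a PC3 list gave 0.127 to 0.197. In PC3 the width difference ran from -0.0720 to 0.209. Numbers and shares of sites depended on the rule and on list length. With only the better-scoring 50% of each list, rounded down to whole peaks by a rule chosen after a first version with ties at the median kept had been seen, there were 547 HIF-1α-only and 60 shared sites. With the 275 best peaks of each list there were 160 and 51, 41.5% of HIF-2α sites were shared, and in HIF-1α-only sites the median distance was 329 bp, RCGTG was in 76.2% and TGACTCA in 4.38%. With peaks of either replicate there were 3172 HIF-1α-only, 683 shared and 727 HIF-2α-only sites, RCGTG was in 61.8% of the first and 34.3% of the last, and 48.4% of HIF-2α sites were shared. A reciprocal overlap of 50% left 52 shared sites, with RCGTG in 78.8%, and 33 HIF-2α-only sites at a median distance of 56584 bp. Strict exclusivity left 20 HIF-2α-only sites with RCGTG in 15.8%, a share of 82.5% of HIF-2α sites shared, and HIF-1α-only sites at 223 bp. With start sites of all transcripts the median distances were 182, 2170 and 4990 bp. In the central 100 bp RCGTG was in 46.7%, 46.8% and 32.2% of the 3 classes and TGACTCA in 3.51%, 8.51% and 10.2%. Over whole sites these were 98.7%, 100% and 91.5%, and 24.4%, 61.7% and 52.5%. The cause of these shifts was not tested where the alternative does not set it by its own construction.

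Leaving out 1 PC3 list, with that protein's sites taken from its other list, gave 717 to 3279 HIF-1α-only, 94 to 344 shared and 20 to 946 HIF-2α-only sites, and 26.7 to 87.0% of HIF-2α sites shared. The 3279 HIF-1α-only sites, the 20 HIF-2α-only sites and the 87.0% came without HIF-1α replicate 1. The 946 HIF-2α-only and 344 shared sites and the 26.7% came without HIF-2α replicate 1, and without HIF-2α replicate 2 there were 176 HIF-2α-only sites and 35.8%. Median distances were 225 to 371 bp for HIF-1α-only, 1936 to 12577 bp for shared and 18943 to 43292 bp for HIF-2α-only sites, and their order was the same in every alternative. RCGTG shares were 63.6 to 71.97% in HIF-1α-only and 15.8 to 52.5% in HIF-2α-only sites, and TGACTCA was in 5.02 to 7.87% of HIF-1α-only sites.

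By the 3 nearest genes, 1 gene each of the study's list and of glycolysis was at a HIF-2α-only site, against 0 by the nearest gene. The share of all genes at such a site was 0.854% by the 3 nearest genes and 0.288% by the nearest. Deviations of same-numbered lists from their protein's mean correlated at -0.0251 over 4582 merged regions. This value does not settle whether same-numbered lists were paired, and both replicates numbered 2 had the longer list and the wider peaks. With the replicate block, the PC3 differences were -1.72 for log10 distance, 0.0683 for width, -10.1 points for TGACTCA, 8.11 for CpG count and -16.2 points for the intergenic share, and the exact sign-flip p was 0.5 for 4 of them, the smallest it can give, and 1 for width. The test over lists of the other lines, and its alternatives, were added after the data were seen, and under strict exclusivity, equal numbers and without each PC3 list the difference ran from -62.0 to -36.1 points, each with an exact p of 0.00926.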
